A study of Rattus norvegicus with 15 samples.

Results

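2,7-Naphthalenediol was compared with 1-naphthol in cultured rat hepatocytes at the same dose and time, by the expression arrays of 3 cultures exposed to each. These are 6 of the 15 arrays of the series, and they were chosen by the compound named in each sample's title. Hepatocytes of male Wister rats (the labels' spelling) were thawed from frozen stock, cultured for 24 h and then exposed for 24 h to a compound at 30 µM or to the vehicle, DMSO. Each condition was run in 3 experiments that the submitters call independent. The other 9 arrays hold DMSO, 1,5-naphthalenediol and naphthalene, with 3 arrays each. The labels do not say how many animals gave the cells, so p-values measure the spread between arrays of a condition, pooled over all 15 arrays. The arrays of 1,5-naphthalenediol lay on different glass slides, so without slide in the model that spread includes their slide difference. A single dose and time were measured. The question behind the series is read-across: whether the liver toxicity of 1 naphthalene analog can be predicted from that of another.

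1-Naphthol carries a single hydroxyl group in an alpha position, next to the bond shared by both rings, whereas 2,7-naphthalenediol carries a hydroxyl group on each ring, both in beta positions. Planar aromatic compounds can bind the aryl hydrocarbon receptor (AhR), which enters the nucleus with its partner ARNT and switches on Cyp1a1, Aldh3a1 and other genes of drug oxidation. Quinones and other electrophiles release the transcription factor NRF2 from its inhibitor KEAP1, and NRF2 raises reductases, glutathione transferases and Hmox1. Immediate early genes such as Egr1 and the Fos and Jun families answer growth factor and stress kinases within minutes and are partly switched on in hepatocytes by isolation and plating. Hepatocytes clear naphthols mainly by glucuronidation and sulfation.

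All 3 arrays of 2,7-naphthalenediol lay on 1 glass slide (slide 1, with the 3 DMSO arrays) and all 3 arrays of 1-naphthol on another (slide 2, with the 3 naphthalene arrays). Compound and slide therefore cannot be told apart from these 6 arrays alone. 1,5-Naphthalenediol was the only condition on both slides, with 2 arrays on slide 1 and 1 on slide 2, and its difference between slides (slide 1 minus slide 2) is called the slide difference and given beside many of the results. Of 58717 gene spots per array, 58.1% to 61.0% were well above background on the 6 arrays. Replicate arrays of a compound had a Pearson r of 0.9975 to 0.9984 over genes. All 10 hepatocyte markers (Alb, Hnf4a, Cps1 and others) were above background on all 6 arrays and none differed between the compounds by limma (0 also at an unadjusted p below 0.05). Of the markers of other liver cells, 4 of 10 for stellate cells and fibroblasts, 3 of 10 each for macrophages, endothelium and bile duct, and 2 of 10 for lymphocytes were above background on all 6 arrays. Vwf, of endothelium, was the 1 marker that passed, at -0.24 with a slide difference of -0.28. In whole cultures, fewer cells of a type and less RNA per cell cannot be told apart.

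Levels below are log2 signals relative to the array's 75th percentile, and a difference is 2,7-naphthalenediol minus 1-naphthol with its standard error, so a negative difference means more RNA with 1-naphthol. Among the genes that passed both without and with slide in the model were Aldh3a1, Cyp1a1, Nqo1 and Gstp1, of drug oxidation and detoxification, all lower with 2,7-naphthalenediol than with 1-naphthol. Of 26 immediate early genes tested, 19 were higher with 2,7-naphthalenediol without slide in the model. By limma over 19803 genes, 2916 (14.7%) passed a Benjamini-Hochberg adjusted p of 0.05, 1234 of them (6.23% of those tested) higher with 2,7-naphthalenediol and 1682 (8.49%) higher with 1-naphthol. The groups of 3 arrays did not overlap for 2901 of the 2916, against 41.3% of all genes tested. Only 150 of the calls reached 2-fold, 17 higher with 2,7-naphthalenediol and 133 higher with 1-naphthol. This was the 1 pair of compounds compared here.

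The slide difference spread over genes about as widely as the compound difference, but the measures are unlike. The slide difference rests on 1 array on slide 2, so the error of that array cannot be separated from the slide. The compound difference rests on means of 3 arrays. Replicate arrays of 1 compound on 1 slide differed from each other with an SD over genes of 0.18 to 0.23. Over all genes the compound difference had an SD of 0.26 and the slide difference within 1,5-naphthalenediol an SD of 0.27, and over these genes, which share arrays, scaling and probes, the r between them was 0.53. For 415 of the 2916 calls, and for 58 of the 150 at 2-fold, the slide difference had the same sign and was as large or larger. Within a slide, 2,7-naphthalenediol can be set against DMSO and 1-naphthol against naphthalene, on arrays used above too. Of the 1234 calls toward 2,7-naphthalenediol, 421 (34.1%) were called in the matching direction in either of these, against 7.43% of all genes. For the 1682 toward 1-naphthol it was 240 (14.3%), against 5.82%. Both within-slide comparisons called 20 and 6. With slide as a block, an estimate that rests on the 1,5-naphthalenediol arrays alone, 16 genes were called (0.0808%), 5 higher with 2,7-naphthalenediol (0.0252%) and 11 higher with 1-naphthol (0.0555%), and 1802 had an unadjusted p below 0.05. Of the 16, 13 were also called without the block, in the same direction. The 13 hold 7 genes with a symbol: Aldh3a1, Cyp1a1, Slc43a3, Nqo1, Gstp1 and Rnf125, higher with 1-naphthol, and Wnt11, higher with 2,7-naphthalenediol. Leaving out any 1 of the 6 arrays brought the count of calls to between 1180 (without 1-naphthol array 2) and 1801 (without 2,7-naphthalenediol array 1).

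**Figure D1:**
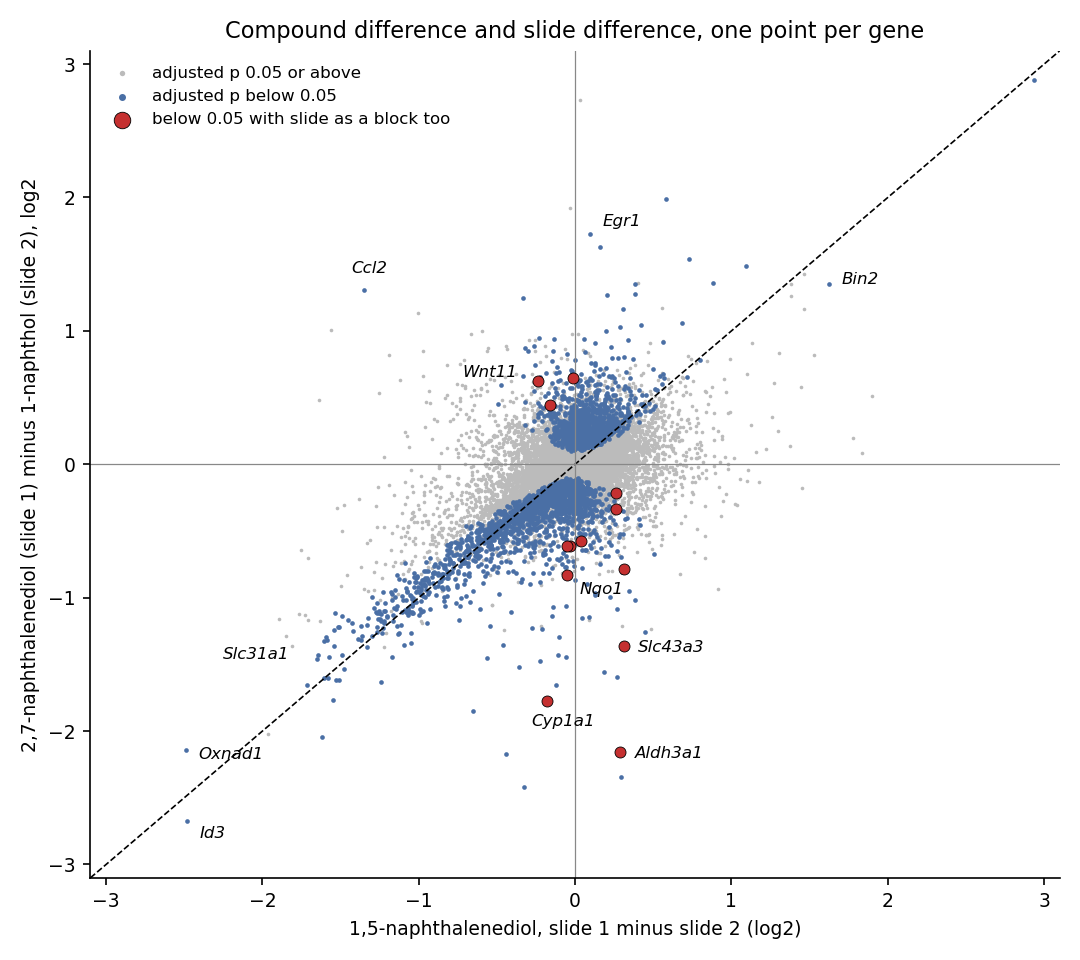
Compound difference (2,7-naphthalenediol minus 1-naphthol, y axis, log2) against the difference between slides within 1,5-naphthalenediol (x axis, log2), 1 point per gene, with a dashed line where both are equal. Points along the dashed line, such as Oxnad1, Id3 and Slc31a1, differed by as much between the slides of 1 compound. Aldh3a1, Cyp1a1, Slc43a3 and Egr1 lie far from it, at slide differences of 0.29, -0.18, 0.31 and 0.09.

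Of the AhR targets, Aldh3a1 and Cyp1a1 had the largest differences. Aldh3a1, an aldehyde dehydrogenase and a standard AhR marker, stood at -5.27, -5.67 and -5.43 on the 2,7-naphthalenediol arrays and at -3.23, -3.33 and -3.34 on the 1-naphthol arrays. The groups did not overlap, and the difference of -2.16 ± 0.11 (4.46-fold more RNA with 1-naphthol) had an adjusted p of 2.14e-06. The slide difference, 0.29, ran the other way, and with the block the difference was -2.45 (adjusted p = 0.000311). Both compounds stood above the condition on their own slide. DMSO was at -7.58, -7.56 and -7.51, not well above background, so that 2,7-naphthalenediol was at least 4.27-fold higher. 1-Naphthol was at least 19.6-fold above naphthalene, where 1 of 3 arrays was well above background. Aldh3a1 was called under every alternative tried, including leaving out each array, with adjusted p-values from 4.05e-09 to 0.00413.

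Cyp1a1, the cytochrome P450 whose induction defines AhR activity in liver, gave 0.26, 0.24 and 0.60 with 2,7-naphthalenediol and 2.30, 2.02 and 2.09 with 1-naphthol. Every 1-naphthol array was above every 2,7-naphthalenediol array, and the difference was -1.77 ± 0.12 (3.42-fold, adjusted p = 4.43e-05). The slide difference was -0.18, and the difference with the block was -1.60 (adjusted p = 0.0411, and 0.106 when 1,5-naphthalenediol array 1 was left out of the block). Against DMSO on its own slide (-0.39, -0.16 and -0.20), 2,7-naphthalenediol was higher by 0.61 ± 0.12 (adjusted p = 0.0110). Against naphthalene on slide 2 (-0.04, -0.13 and 0.06), 1-naphthol was higher by 2.17 ± 0.12 (adjusted p = 1.88e-06). The 1,5-naphthalenediol arrays, at 2.08 and 1.75 on slide 1 and 2.09 on slide 2, lay with 1-naphthol. The averaged level of the 8 AhR targets tested, each centred on its mean over all 15 arrays, put the 2,7-naphthalenediol arrays (-0.16, -0.07 and -0.01) between DMSO (-0.66 to -0.51) and 1-naphthol (0.57 to 0.69).

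**Figure D2:**
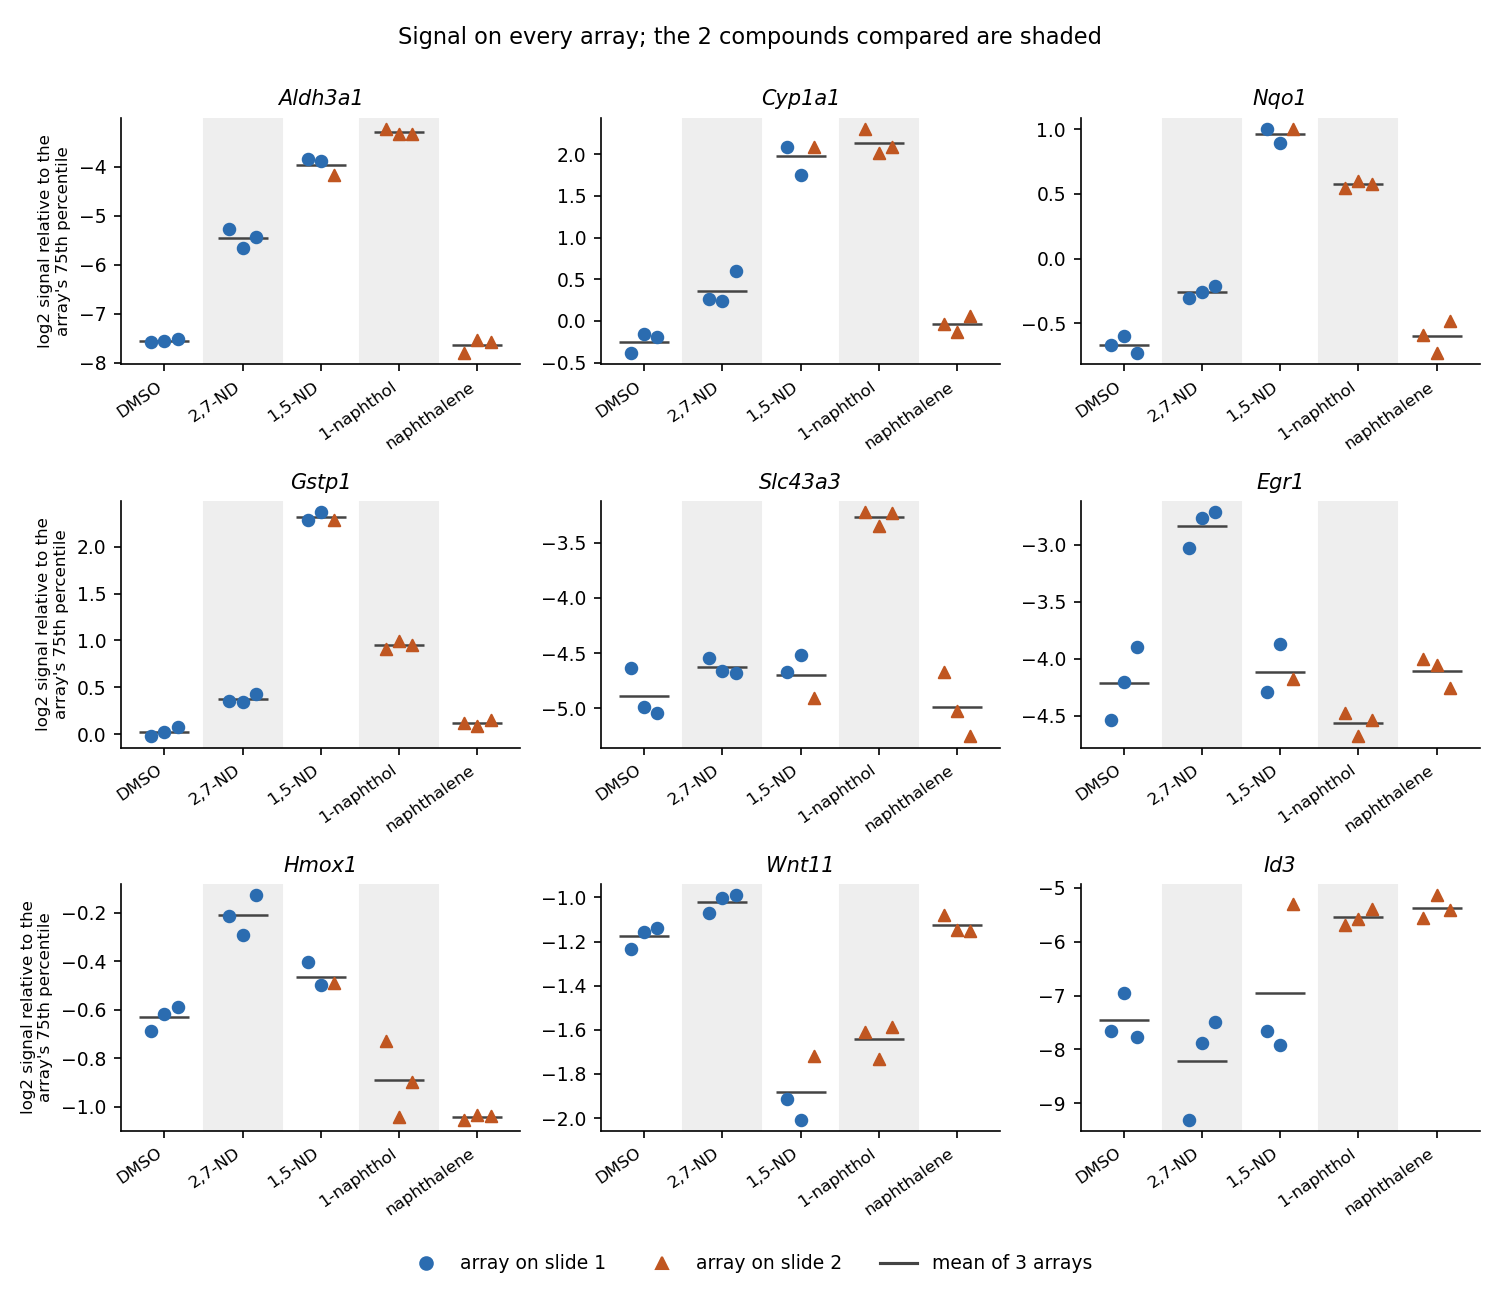
Log2 signal relative to the array's 75th percentile (y axis) for 9 genes on all 15 arrays, with the mean of each condition as a line, slide 1 in blue circles and slide 2 in orange triangles, and the compared compounds shaded (ND, naphthalenediol). Aldh3a1, Cyp1a1, Nqo1 and Gstp1 show 2,7-naphthalenediol between DMSO and 1-naphthol, Egr1 is high with 2,7-naphthalenediol alone, and Id3 follows the slide, the 1,5-naphthalenediol array on slide 2 (-5.30) lying with 1-naphthol.

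Of 10 AhR targets listed, 8 were tested (Cyp1b1 and Tiparp were not). Of these, 3 were higher with 1-naphthol (Aldh3a1, Cyp1a1 and Nqo1), the same 3 as with the block. That is 37.5% of the list, against 8.49% of all genes. Lpcat2, a lysophosphatidylcholine acyltransferase, was higher with 2,7-naphthalenediol by 0.50 ± 0.10 (adjusted p = 0.0107). The slide difference of Lpcat2, 0.20, had the same sign, and with the block the difference was 0.30 (adjusted p = 0.649). Neither compound passed for Lpcat2 on its own slide. 2,7-Naphthalenediol differed from DMSO by 0.16 (adjusted p = 0.321) and 1-naphthol from naphthalene by 0.01. The list's median difference was -0.47, against -0.0027 over all genes tested. Cyp1a2, the second hepatic enzyme of the Cyp1 family, did not pass: its difference was -0.12 with a 95% interval of -0.26 to 0.02, and its slide difference, -0.11, was nearly as large. Ugt1a6, a phenol glucuronidating enzyme under AhR control, differed by 0.03 (-0.06 to 0.11), with levels from 5.95 to 6.02 on the 6 arrays. Ahrr, the receptor's repressor, was at -8.0, -6.82 and -6.85 with 2,7-naphthalenediol, not well above background on any array, and at -5.75, -6.26 and -6.02 with 1-naphthol. That is at least 2.32-fold, but the adjusted p was 0.0586. Of the receptor and its partners, Ahr was higher with 1-naphthol by a difference of -0.28 ± 0.05 (adjusted p = 0.00921, slide difference 0.14). Its block value was -0.42 (adjusted p = 0.132). It was the 1 call among 6 tested (16.7%, against 8.49% of all genes), and the calls were 2 without 2,7-naphthalenediol array 1. For Ahr, 2,7-naphthalenediol differed from DMSO by 0.01 (adjusted p = 0.888) and 1-naphthol from naphthalene by 0.20 (adjusted p = 0.0757). Arnt, the receptor's partner, and Hsp90aa1 and Hsp90ab1, which encode its chaperone, did not pass.

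Nqo1 and Gstp1 were the other detoxification genes that kept their call with the slide block, and the 250 bases before the start of each are shown with the letters of AhR and NRF2 sites in capitals, since Nqo1 answers both factors. The sequences are RefSeq's on the GRCr8 build, both from the minus strand, 5′ to 3′: Nqo1 at chr19:52220268-52220517 and Gstp1 at chr1:210769706-210769955. Capitals mark GCGTG on either strand (CACGC on the printed strand), the AhR core, whose letters also fit the core of a hypoxia element, and TGACNNNGC, the antioxidant element, whose match in Gstp1 overlaps the AP-1 letters TGACTCA.

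Nqo1: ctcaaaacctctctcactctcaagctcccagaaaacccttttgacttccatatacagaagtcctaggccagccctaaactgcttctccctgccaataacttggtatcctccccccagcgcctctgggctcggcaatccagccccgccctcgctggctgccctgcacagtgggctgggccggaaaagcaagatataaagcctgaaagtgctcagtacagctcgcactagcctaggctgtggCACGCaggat

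Gstp1: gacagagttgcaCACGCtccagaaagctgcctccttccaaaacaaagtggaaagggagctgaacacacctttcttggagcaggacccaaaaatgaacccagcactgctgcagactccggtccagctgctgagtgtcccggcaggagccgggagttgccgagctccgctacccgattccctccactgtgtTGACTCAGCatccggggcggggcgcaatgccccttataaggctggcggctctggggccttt

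GCGTG was found in the 250 bases of 5 of 8 promoters of AhR targets and 26 of 47 promoters of NRF2 targets, against 25.9% of 33469 rat promoters. The same letters were in 16 of 26 promoters of immediate early genes (61.5%, against 62.5% for AhR targets). TGACNNNGC was in 11 of the 47 NRF2 target promoters, against 10.1% of all. Nqo1, the quinone reductase, stood at -0.30, -0.26 and -0.21 with 2,7-naphthalenediol and at 0.54, 0.60 and 0.58 with 1-naphthol. The groups were well apart, by -0.83 ± 0.06 (1.78-fold, adjusted p = 4.43e-05), and the slide difference was -0.05. Gstp1, the pi class glutathione transferase, was at 0.36, 0.34 and 0.43 against 0.91, 0.99 and 0.95. Its difference of -0.57 ± 0.04 (1.49-fold, adjusted p = 4.89e-05) became -0.61 with the block (adjusted p = 0.0248, and 0.109 when 1,5-naphthalenediol array 2 was left out). The block value of Nqo1 was -0.78 (adjusted p = 0.0418, and 0.109 when either 1,5-naphthalenediol array of slide 1 was left out). On their own slides, 2,7-naphthalenediol exceeded DMSO by 0.41 ± 0.06 for Nqo1 and by 0.35 ± 0.04 for Gstp1, and 1-naphthol exceeded naphthalene by 1.17 ± 0.06 and 0.83 ± 0.04.

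The NRF2 and redox genes did not move as one. Of 49 tested, 11 were higher with 1-naphthol (22.45%, against 8.49% of all genes) and 5 with 2,7-naphthalenediol (10.2%, against 6.23%). The median difference was -0.04. Within slides, 14 of the 49 were above and 1 below DMSO with 2,7-naphthalenediol (6.20% and 4.84% of all genes). With 1-naphthol 12 were above and 1 below naphthalene (1.04% and 1.40%). Higher with 1-naphthol, beside Nqo1 and Gstp1, were Gsta2, Akr1b8, Akr7a3, Gsta3, Gstm1, Abcc2, Blvrb, Taldo1 and Nfe2l2, the gene of NRF2 itself (-0.22 ± 0.05, adjusted p = 0.0126). Higher with 2,7-naphthalenediol were Hmox1, Srxn1, Osgin1, Maff and Gpx3. The count of 11 was 7 without 1-naphthol array 1 or array 3 (such counts can include genes not called on all arrays), and all 16 kept their sign with the block, where Nqo1 and Gstp1 alone were called.

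Gsta2, the alpha class transferase most used as an NRF2 marker in rat liver, was at 2.70, 2.87 and 3.0 with 2,7-naphthalenediol and at 3.59, 3.68 and 3.64 with 1-naphthol. The difference was -0.78 ± 0.07 (adjusted p = 0.000256), the slide difference -0.15 and the block value -0.63 (adjusted p = 0.132). Here 2,7-naphthalenediol differed from DMSO by 0.06 ± 0.07 (adjusted p = 0.623), whereas 1-naphthol exceeded naphthalene by 0.78 ± 0.07 (adjusted p = 0.000217). Of 22 glutathione transferases tested, 6 were higher with 1-naphthol (27.3%, against 8.49% of all genes) and none with 2,7-naphthalenediol. An unadjusted p below 0.05 by limma was found for 9 of the 22, against 6118 of all 19803 genes. The 6 are Gsta1, Gsta2, Gsta3, Gsta5, Gstm1 and Gstp1; the count was 4 without any 1 of the arrays. Gsta3, at -0.17 ± 0.05, lost its call in all 6 cases. The alpha and mu class genes have near-identical copies, so their probes may share signal.

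Hmox1, heme oxygenase, ran the other way, with -0.21, -0.29 and -0.13 on the 2,7-naphthalenediol arrays and -0.73, -1.04 and -0.90 on the 1-naphthol arrays. It was higher with 2,7-naphthalenediol by 0.68 ± 0.07 (1.60-fold, adjusted p = 0.000547), with a slide difference of 0.04 and a block value of 0.64 (adjusted p = 0.132). 2,7-Naphthalenediol was above DMSO on slide 1 by 0.42 ± 0.07 (adjusted p = 0.00488), whereas 1-naphthol differed from naphthalene by 0.15 ± 0.07 (adjusted p = 0.281). DMSO averaged -0.63 and naphthalene -1.04 for Hmox1. Srxn1, sulfiredoxin, was at 3.11, 2.98 and 3.22 against 2.75, 2.54 and 2.56, a difference of 0.49 ± 0.08 (adjusted p = 0.00573, block 0.54 with adjusted p = 0.261). For Srxn1, 2,7-naphthalenediol exceeded DMSO by 0.27 ± 0.08 (adjusted p = 0.0476), a call lost when any 1 DMSO array was left out. 1-Naphthol differed from naphthalene by 0.03 (adjusted p = 0.901). Osgin1 differed by 0.32 ± 0.07, beside a slide difference of 0.17. Of the genes of glutathione and thioredoxin supply, 3 key genes did not pass: Gclc differed by 0.10 (95% interval -0.02 to 0.22), Txnrd1 by 0.16 (-0.0031 to 0.32) and the cystine carrier Slc7a11 by 0.03 (-0.14 to 0.20). Slc7a11 was above DMSO with 2,7-naphthalenediol (0.61, adjusted p = 0.00192) and above naphthalene with 1-naphthol (0.40, adjusted p = 0.0224). Txnrd1 passed on its own slide with 2,7-naphthalenediol alone (0.26, adjusted p = 0.0467), and Gclc with neither compound.

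**Figure D3:**
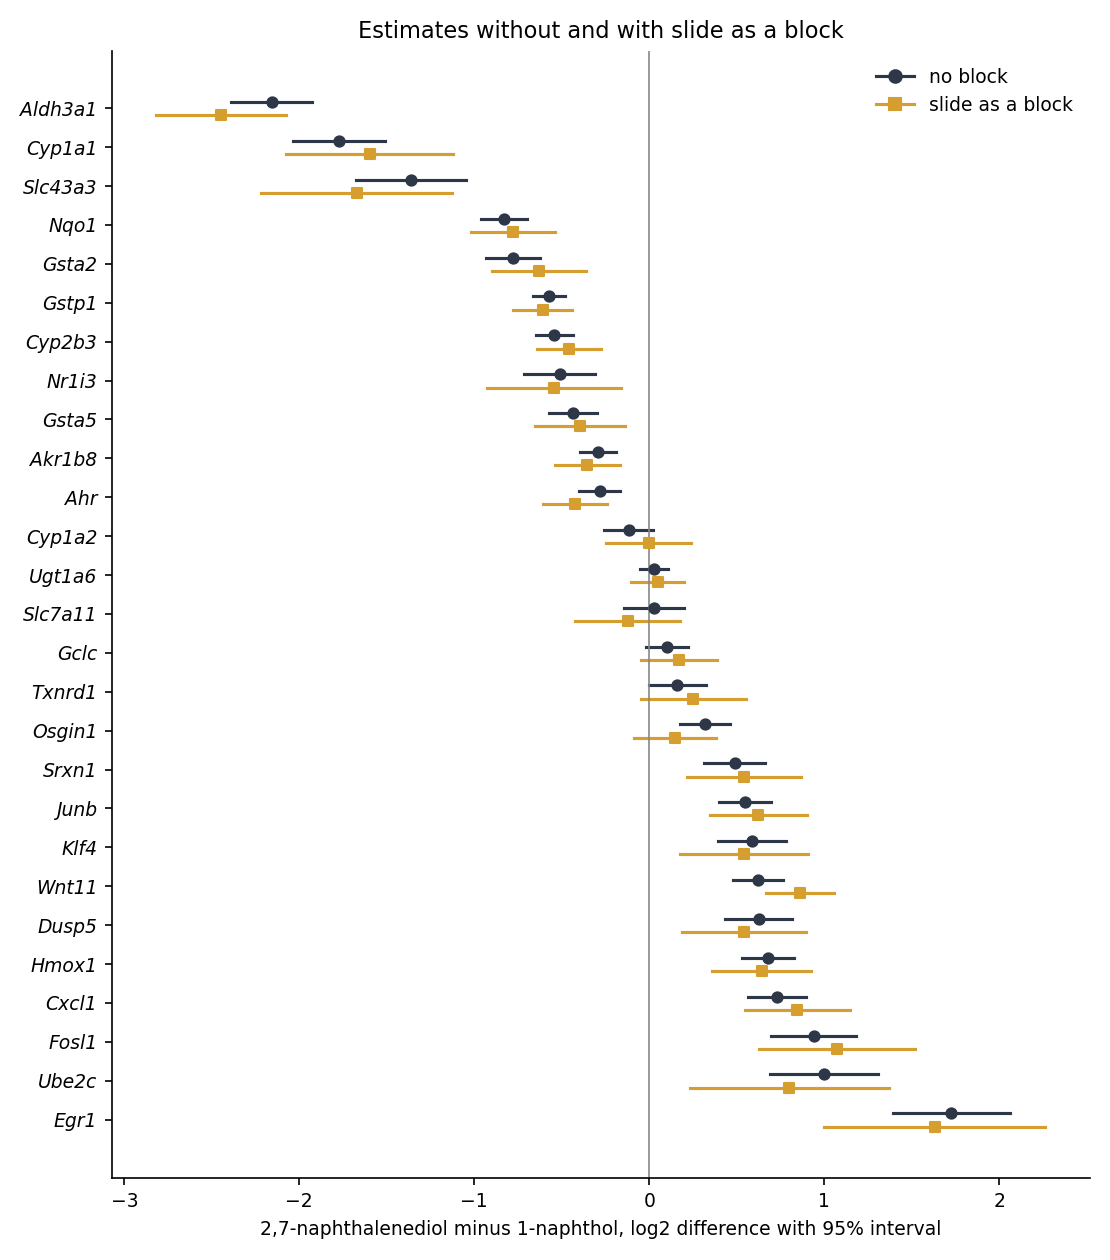
Log2 difference with its 95% interval (x axis) for 27 named genes, without a block (dark circles) and with slide as a block (yellow squares). The paired estimates of Aldh3a1, Cyp1a1, Nqo1, Hmox1 and Egr1 lie close together, the intervals with the block are wider, and those of Ugt1a6, Slc7a11 and Gclc include 0 in both fits.

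Genes under the nuclear receptors CAR and PXR, which raise hepatic drug metabolism, were called more often toward 1-naphthol (25.9%, against 8.49% of all genes) and about as often as all genes toward 2,7-naphthalenediol (7.41%, against 6.23%). Of 27 tested, Cyp2b3, Cyp2b2, Cyp2c6v1, Cyp2a2, Alas1, Nr1i3 and Slco1a4 were higher with 1-naphthol and Cyp3a62 and Abcb1b with 2,7-naphthalenediol; the list's median was -0.08. The count of 7 was 4 without 2,7-naphthalenediol array 1, and the count of 2 was 0 without 1-naphthol array 2 and 1 without 2,7-naphthalenediol array 2 or 3 or 1-naphthol array 1. Cyp2b3 was at 2.07, 2.16 and 2.17 against 2.68, 2.71 and 2.65, without overlap, a difference of -0.54 ± 0.05 (adjusted p = 0.000206) that was -0.46 with the block (adjusted p = 0.110). Nr1i3, the CAR receptor itself, differed by -0.51 ± 0.09 (adjusted p = 0.00863), with a slide difference of 0.03 and a block value of -0.54 (adjusted p = 0.366). Neither compound passed for Nr1i3 on its own slide. 2,7-Naphthalenediol differed from DMSO by -0.10 (adjusted p = 0.483) and 1-naphthol from naphthalene by 0.07 (adjusted p = 0.771). DMSO averaged -4.31 and naphthalene -3.97. Alas1, the first enzyme of heme synthesis, differed between the compounds by -0.34 ± 0.07 (adjusted p = 0.00983). Cyp3a23-3a1, a PXR target, differed by -0.08 (95% interval -0.23 to 0.08) and did not pass.

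Slc43a3, a purine base carrier of the plasma membrane, was high on the 1-naphthol arrays and on no others. The 2,7-naphthalenediol arrays were at -4.55, -4.66 and -4.68 and the 1-naphthol arrays at -3.22, -3.35 and -3.23. DMSO (-4.63, -4.99 and -5.04), naphthalene (-4.67, -5.02 and -5.25) and 1,5-naphthalenediol (-4.67, -4.52 and -4.91) all lay with 2,7-naphthalenediol. The difference was -1.36 ± 0.15 (2.57-fold, adjusted p = 0.000646), and -1.67 with the block (adjusted p = 0.0454). The block call was lost when either slide 1 array of 1,5-naphthalenediol was left out (adjusted p = 0.109 and 0.133). Of the 21 transporters of drugs and conjugates tested, Abcc2, Abcb11 and Slco1a4 were also higher with 1-naphthol and Abcb1b and Slc22a8 with 2,7-naphthalenediol, with differences from -0.30 to 0.24. With Slc43a3 that is 19.05% toward 1-naphthol (8.49% of all genes) and 9.52% toward 2,7-naphthalenediol (6.23% of all genes). Of these calls the count of 4 toward 1-naphthol was 2 (without 2,7-naphthalenediol array 1 or 3 or 1-naphthol array 2), and the count of 2 toward 2,7-naphthalenediol was 1 (without 2,7-naphthalenediol array 2 or 3 or 1-naphthol array 1 or 2). Nr1h4, the bile acid receptor FXR, was at 1.39, 1.46 and 1.40 against 1.70, 1.79 and 1.71, a difference of -0.32 ± 0.05 (adjusted p = 0.00403, slide difference -0.10). It was 1 of 4 bile acid genes of 22 higher with 1-naphthol (18.2%, against 8.49% of all genes), with Baat, Abcb11 and Abcc2. The count was 2 without 2,7-naphthalenediol array 3 or 1-naphthol array 2. Abcb11 and Abcc2 also count among the transporters above.

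Wnt11, a secreted signalling protein of the Wnt family, was the 1 gene with a symbol that was higher with 2,7-naphthalenediol both without and with the block. The 2,7-naphthalenediol arrays were at -1.07, -1.0 and -0.99 and the 1-naphthol arrays at -1.61, -1.73 and -1.59. DMSO (-1.23 to -1.14) and naphthalene (-1.15 to -1.08) lay near 2,7-naphthalenediol, 1,5-naphthalenediol was at -1.91, -2.01 and -1.72, and 1-naphthol differed from naphthalene on its own slide by -0.52 ± 0.07 (adjusted p = 0.00249). The difference between the compounds was 0.62 ± 0.07 (adjusted p = 0.000646) and 0.86 with the block (adjusted p = 0.00423), since the slide difference, -0.24, ran against it. Rnf125, a ubiquitin ligase, differed by -0.21 ± 0.06 (adjusted p = 0.0439) and lost that call without any 1 of the 6 arrays.

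Immediate early genes were the list with the largest share of calls among the lists examined: of 35 listed 26 were tested (Fos and Fosb were not), and 19 of these (73.1%) were higher with 2,7-naphthalenediol, against 6.23% of all genes, and none was higher with 1-naphthol. The median difference was 0.32 without and 0.36 with the block. The count was 17 or 18 without any 1 array, 13 with the random slide block, and 0 with the fixed block by limma's adjusted p, although all 19 kept their sign and 20 of the 26 had an unadjusted p below 0.05. With the fixed block 1802 of all 19803 genes had such an unadjusted p. Averaged over the 26 genes, each centred on its mean over the 15 arrays, the 2,7-naphthalenediol arrays were at 0.22, 0.24 and 0.25 and all other arrays between -0.17 and 0.11.

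Egr1, a zinc finger factor switched on through serum response elements, led the list, and its promoter is shown for them. The 250 bases before its start (RefSeq, GRCr8, chr18:26736828-26737077, plus strand) follow with the CArG boxes, the sites of serum response factor, in capitals.

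Egr1: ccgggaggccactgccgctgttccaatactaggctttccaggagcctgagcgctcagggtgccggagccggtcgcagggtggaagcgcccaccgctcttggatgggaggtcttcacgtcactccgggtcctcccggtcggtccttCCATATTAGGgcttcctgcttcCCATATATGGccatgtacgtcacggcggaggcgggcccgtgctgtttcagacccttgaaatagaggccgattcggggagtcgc

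A CArG box, which reads alike on both strands, was found 2 times in this window, in 5 of 26 promoters of immediate early genes and in 1.5% of all rat promoters of that length. Egr1 was at -3.03, -2.77 and -2.72 with 2,7-naphthalenediol and at -4.47, -4.68 and -4.53 with 1-naphthol. The groups were far apart, by 1.73 ± 0.15 (3.31-fold, adjusted p = 0.000206), and the slide difference was 0.09; with the block the difference was 1.63 (adjusted p = 0.0981). On slide 1 it exceeded DMSO (-4.54, -4.21 and -3.90) by 1.38 ± 0.15 (adjusted p = 0.000985). On slide 2, 1-naphthol and naphthalene differed by -0.46 ± 0.15 (adjusted p = 0.147).

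Fosl1, a Fos family subunit of AP-1, was at -2.42, -2.43 and -2.34 against -3.27, -3.55 and -3.19, a difference of 0.94 ± 0.11 (adjusted p = 0.00145, block 1.07). Junb, its Jun partner, differed by 0.55 ± 0.07, the stem cell factor Klf4 by 0.59 ± 0.09, and Dusp5, a phosphatase that turns off ERK, by 0.62 ± 0.09. Phlda1 differed by 0.88 ± 0.16, Nr4a1, an orphan nuclear receptor, by 0.48 ± 0.09, and Atf3, a stress-induced repressor, by 0.45 ± 0.08. Adjusted p-values for these 6 genes lay between 0.00204 and 0.00894, and no group overlapped. Jun differed by 0.26 ± 0.04 and Myc by 0.13 ± 0.04. The 7 genes that did not pass were Dusp1, Nr4a2, Ier3, Fosl2, Jund, Egr2 and Zfp36, the last at -0.36 with a slide difference of -0.55. Klf10 was below its own slide's reference with both compounds, by -0.18 with 2,7-naphthalenediol against DMSO and by -0.26 with 1-naphthol against naphthalene. On slide 1, 8 of the 26 were above DMSO with 2,7-naphthalenediol (6.20% of all genes), and on slide 2 none was above and 1 below naphthalene with 1-naphthol (1.04% and 1.40%).

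**Figure D4:**
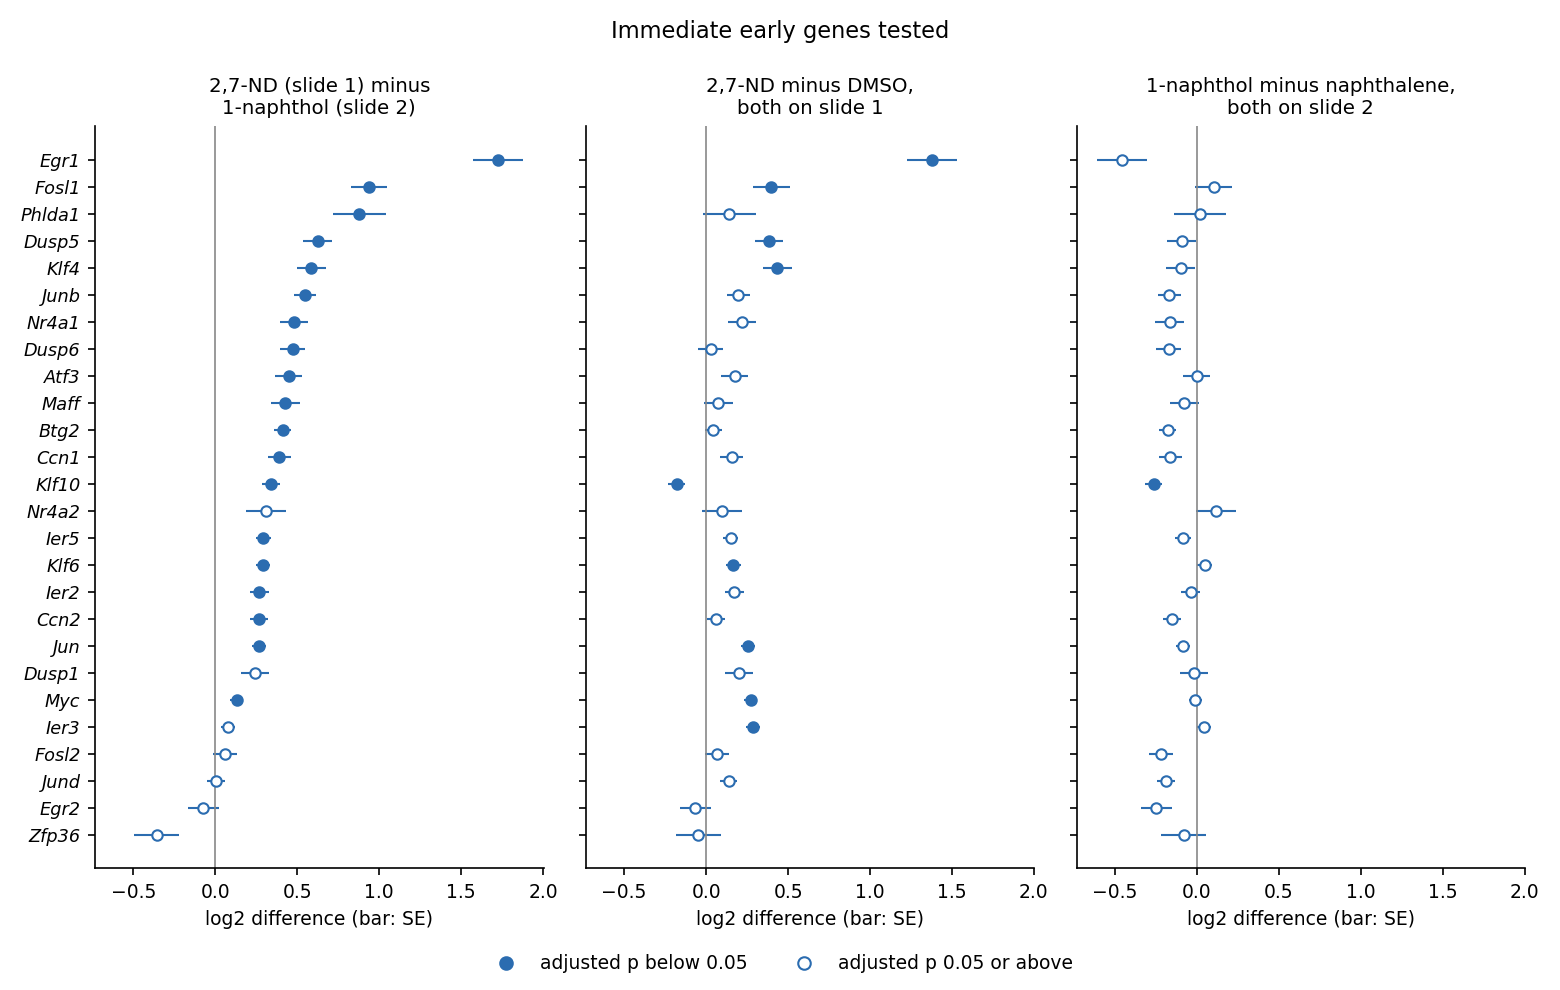
Log2 difference with its standard error (x axis) for the 26 immediate early genes tested (rows): 2,7-naphthalenediol minus 1-naphthol, and each compound against a condition on its own slide. In the left panel 19 genes pass (filled points) and all 19 are above 0, in the middle panel Egr1 leads at 1.38, and in the right panel Klf10 alone passes, at -0.26.

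Of 22 genes downstream of NF-kB and STAT3, which drive inflammatory signals, 8 were higher with 2,7-naphthalenediol (36.4%, against 6.23% of all genes) and none with 1-naphthol. An unadjusted p below 0.05 was found for 11 of the 22, against 6118 of all 19803 genes. Leaving out 1 array gave counts of 4 (without 2,7-naphthalenediol array 3) to 6 (without array 1), and of 5 without 2,7-naphthalenediol array 2 or any 1-naphthol array. On slide 1, 3 of the 22 were above and 1 below DMSO with 2,7-naphthalenediol (6.20% and 4.84% of all genes), with a median of 0.0065. On slide 2, none was above and 1 below naphthalene with 1-naphthol (1.04% and 1.40%), with a median of -0.12. Cxcl1, a neutrophil chemokine, was at -1.06, -0.98 and -0.98 against -1.70, -1.81 and -1.71, a difference of 0.73 ± 0.08 (adjusted p = 0.000646) that was 0.85 with the block (adjusted p = 0.0607). Nfkbia and Nfkb1, the inhibitor and a subunit of NF-kB, each differed by 0.30 ± 0.05. Ccl2, a monocyte chemokine, was higher by 1.31 ± 0.36 (adjusted p = 0.0320). Its slide difference, -1.35, ran the other way, with 1,5-naphthalenediol at -5.27 and -4.81 on slide 1 and -3.69 on slide 2, and the block value was 2.66 (adjusted p = 0.0981). Of the 3 macrophage markers tested none passed, and all 3 differences were below 0 (median -0.23).

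Some genes of mitosis were higher with 2,7-naphthalenediol as well. Of 35 cell cycle and replication genes, 10 were higher with 2,7-naphthalenediol (28.6%, against 6.23% of all genes) and the median was 0.12. Another 3 (Mcm2, Cdk2 and Hells) were higher with 1-naphthol, a share of 8.57% that is that of all genes (8.49%). Ube2c, which feeds the anaphase-promoting complex, was at -5.15, -4.84 and -4.75 against -5.63, -6.20 and -5.92, a difference of 1.00 ± 0.14 (adjusted p = 0.00350, slide difference 0.20). Ccnb1 and Ccnb2, the mitotic cyclins, differed by 0.65 ± 0.09 and 0.55 ± 0.10, Rrm2, of nucleotide synthesis, by 0.59 ± 0.12 and the mitotic kinase Plk1 by 0.58 ± 0.13. Leaving out an array gave counts of 8 to 11 toward 2,7-naphthalenediol and 0 to 2 toward 1-naphthol, with 0 without 2,7-naphthalenediol array 2 or 1-naphthol array 2. With the fixed block none was called, and 12 of the 35 had an unadjusted p below 0.05, against 1802 of all 19803 genes.

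Smaller sets were called in part. Toward 2,7-naphthalenediol (6.23% of all genes) the shares were 16.2% of glycolysis and hypoxia genes, 13.6% of p53 targets, 15.4% of ATF4 targets and 20.8% of 24 heat shock genes. Toward 1-naphthol (8.49% of all genes) they were 2.70% of glycolysis and hypoxia genes and 19.5% of aldehyde, carbonyl and quinone enzymes. The heat shock share toward 1-naphthol, 8.33%, was that of all genes. Btg2 and Atf3, named below, also count among the immediate early genes. The glucose carrier Slc2a1 was at -0.14, 0.01 and 0.01 against -0.60, -0.64 and -0.70, higher with 2,7-naphthalenediol by 0.60 ± 0.08 (adjusted p = 0.00204, block 0.60 with adjusted p = 0.188), and it was 1 of 6 glycolysis and hypoxia genes of 37 so called (1 ran the other way, and the count of 6 was 3 without 1-naphthol array 2). Plk3, Btg2 and Gadd45a, which halt the cell cycle after damage, were the 3 p53 targets of 22 that passed, with differences of 0.63 ± 0.09, 0.41 ± 0.05 and 0.26 ± 0.05. Slc3a2, Slc7a5, Slc6a9, Nupr1, Ppp1r15a and Atf3 were the 6 of 39 ATF4 targets higher with 2,7-naphthalenediol, and the count was 3 without 2,7-naphthalenediol array 1 or any 1-naphthol array. Neither compound passed on its own slide for Slc3a2 (0.01 against DMSO, 0.11 against naphthalene) or Atf3 (0.18 and -0.0013). DMSO averaged 1.95 and naphthalene 1.56 for Slc3a2. Of the 39, 6 were above and 1 below DMSO with 2,7-naphthalenediol (6.20% and 4.84% of all genes). With 1-naphthol 2 were above naphthalene and none below (1.04% and 1.40%). Hspb1, a small heat shock protein, was higher with 1-naphthol (-0.51 ± 0.10, adjusted p = 0.0103), as was Cryab, whereas Hspb8, Bag3, Dnaja1, Hspa8 and Hspa1a were higher with 2,7-naphthalenediol; the count toward 2,7-naphthalenediol was 3 without any 1 array, and that toward 1-naphthol was 1 without 2,7-naphthalenediol array 2 or 3 or 1-naphthol array 1. Of 41 aldehyde, carbonyl and quinone enzymes beyond Aldh3a1 and Nqo1, 8 were higher with 1-naphthol, among them Akr1b8 (-0.29 ± 0.05) and Ptgr1 (-0.27 ± 0.05), with counts of 3 without any 1 of the 1-naphthol arrays, 4 without 2,7-naphthalenediol array 1 or 2, and 5 without array 3.

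**Figure D5:**
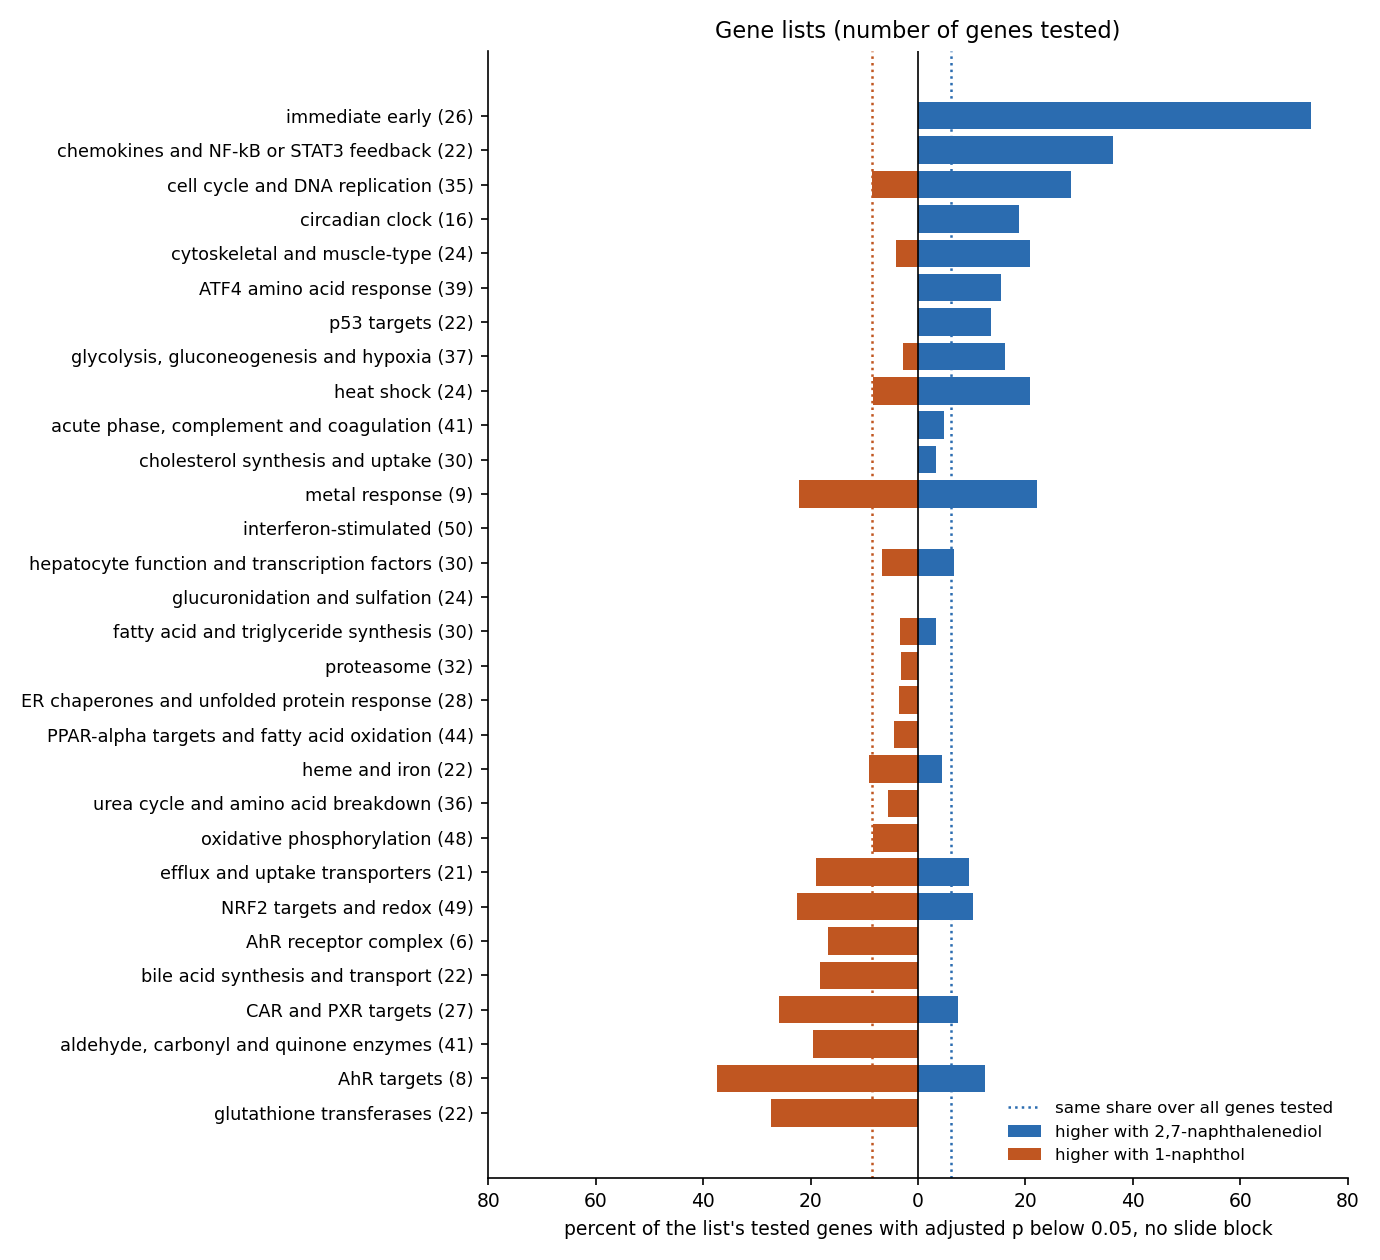
Percent of the tested genes of each list with an adjusted p below 0.05 without a slide block (x axis), higher with 2,7-naphthalenediol to the right and higher with 1-naphthol to the left, with the number tested in brackets and dotted lines at the shares over all genes (6.23% and 8.49%). Immediate early genes reach 73.1% on the right, and AhR targets 37.5% and glutathione transferases 27.3% on the left.

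The conjugation enzymes that clear naphthols did not pass. By limma none of 24 glucuronidation and sulfation genes was called, and the median difference was -0.07. An unadjusted p below 0.05 was found for 3 of them, against 6118 of all 19803 genes. Sult1a1, the main phenol sulfotransferase, differed by -0.06 (95% interval -0.14 to 0.02) and Ugt2b1 by -0.10 (-0.21 to 0.02), whereas the widest interval of the list was that of Ugt1a8 (-0.39, -0.94 to 0.15). None of 50 interferon-stimulated genes was called either (1 at an unadjusted p below 0.05), and Mx1, an antiviral GTPase, differed by 0.49 (-0.50 to 1.49), with -0.33, -0.97 and -0.85 against -0.89, -1.01 and -1.73. The median of the 50 was 0.22 and their median slide difference -0.37. On slide 1, 21 of the 50 were lower with 2,7-naphthalenediol than with DMSO (4.84% of all genes were), where the DMSO arrays spread from 0.29 to 1.00 in the averaged, centred level. Of 30 cholesterol genes Sqle alone passed (0.12 ± 0.04, adjusted p = 0.0464), a call lost without any 1 of the 6 arrays. That is 3.33% toward 2,7-naphthalenediol, against 6.23% of all genes. Fdps differed by -0.01 (-0.10 to 0.08) and Acat2 by -0.06 (-0.15 to 0.03). Among stress genes that did not pass were Syvn1 (0.06, -0.03 to 0.15) and Herpud1 (-0.09, -0.21 to 0.03) of the unfolded protein response, and Gdf15 (0.32, 0.06 to 0.58, adjusted p = 0.0889), a stress hormone. Herpud1 was above DMSO with 2,7-naphthalenediol (0.35, adjusted p = 0.00386) and above naphthalene with 1-naphthol (0.37, adjusted p = 0.00598). Syvn1 and Gdf15 passed on their own slide with 2,7-naphthalenediol alone, at 0.44 and 0.79 above DMSO.

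Some of the largest calls followed the slide. Slc31a1, the copper carrier, was at -4.40, -4.30 and -4.32 with 2,7-naphthalenediol and at -2.93, -2.87 and -2.93 with 1-naphthol, a difference of -1.43 ± 0.33 (adjusted p = 0.0158). The 1,5-naphthalenediol arrays were at -4.59 and -4.64 on slide 1 and at -2.98 on slide 2, and with the block the difference was 0.21. Id3, an inhibitor of helix-loop-helix factors, was at least 5.54-fold higher with 1-naphthol, with a slide difference of -2.49 and a block value of -0.19. Oxnad1, Cox6c-ps1 and Chmp1b2 had the same pattern, with differences of -2.14, -1.17 and -1.12 and slide differences of -2.49, -1.45 and -1.24. In the other direction, Bin2, Phf13, Sbk1 and Nfix had differences of 1.35, 0.46, 0.40 and 0.37 and slide differences of 1.63, 0.47, 0.40 and 0.39. Bin2 was not well above background on any 1-naphthol array, nor Oxnad1 on any 2,7-naphthalenediol array, so their folds are bounds, at least 2.55-fold and at least 3.04-fold.

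Cimap2, a cilium gene, did not follow the slide, and the 1,5-naphthalenediol arrays were above all others on both slides (-5.07 and -4.66, and -5.13). It was at -8.17, -8.08 and -8.22 with 2,7-naphthalenediol, not well above background on any array, and at -6.50, -7.15 and -6.03 with 1-naphthol, above background on 2 of 3. The fold was at least 2.56 (adjusted p = 0.00645), with a slide difference of 0.27 and a block adjusted p of 0.253. Ctbp2, a transcriptional corepressor, differed by 0.55 (95% interval -0.03 to 1.12) and did not pass, its slide difference of 0.48 being close to that.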

How the data were processed

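RNA was extracted with miRNeasy and turned into Cy3-labelled cRNA with a Low Input Quick Amp kit, per the labels' protocols, and hybridised to 1-colour Agilent rat arrays, 1 per sample. Per the file headers, Feature Extraction 10.7.1.1 gave each spot's intensity, already background-subtracted and detrended, with no scaling between arrays. The deposited files also hold other values: flags for outlier, saturated and well-above-background spots. From these, log2 intensity minus the array's 75th percentile over gene spots was computed, outlier spots were left out, spots of a probe were averaged, a probe was kept where every array of some condition had it well above background, and the brightest kept probe stood for a gene. Symbols came from the reference's RefSeq accessions, which matched 21229 of 45598 gene probes; a listed gene that was not tested was either unmatched or not kept.

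The 19803 genes (10503 with a symbol; the rest known by accession) were fitted with limma 3.58.1 in R 4.3.3 over all 15 arrays and 5 condition means, with eBayes and Benjamini-Hochberg adjustment over all genes at 0.05. The step was tested on simulated data. On the 6 arrays the 75th percentile of intensity lay between 1898 and 2074, and none of the spots used was saturated. The number of arrays limits the precision. A gene not well above background in a condition has only a bound on its fold, computed against the lowest signal well above background or its own, whichever is higher.

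Named genes were 34 key genes (30 tested; Cyp1b1, Tiparp, Gclm and Cyp7a1 were not), up to 12 per direction called both without and with the slide block, up to 4 per direction within the slide difference, and up to 3 per direction in each list. Genes beyond that rule (Id3, Ccl2, Phlda1, Klf4, Dusp5, Nr4a1, Jun, Myc, Klf10, Zfp36, Rrm2, Plk1, Vwf, Sult1a1, Ugt2b1 and further list members) were chosen after their values were seen, as were the Gstp1 and Egr1 promoters and the CArG motif. The members and lists were chosen with earlier results of these data known.

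Same-numbered arrays of both compounds deviated from their means with r of 0.068, 0.025 and 0.0065 over genes, so the numbers were not taken to pair them. Alternatives were slide as a fixed or random block, other normalizations, filters and priors, a replicate block, the mean of a gene's probes, and leaving out each array. The normexp alternative used median spot signals, since mean signals were not used here.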

Additional observations from a re-analysis of the deposited data

How the results depend on the processing

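For genes called, 2,7-naphthalenediol versus 1-naphthol, the 2916 became 16 with slide as a fixed block (5 genes higher with 2,7-naphthalenediol, 11 genes higher with 1-naphthol, 6 genes called at 2-fold or more), 241 with slide as a random block (145, 96 and 21), 7 (4, 3 and 3) and 6 (2, 4 and 4) with the fixed block and without 1,5-naphthalenediol array 1 or 2, and 1186 (480 and 706) with no filter on dim probes. Leaving out each array gave 1180 to 1801 calls (488 to 776 and 692 to 1025; 99 to 127 at 2-fold or more). Normexp background left 27 at 2-fold or more, and a filter on all 15 arrays 88. Of the calls, 42.3% were higher with 2,7-naphthalenediol, 31.3% with the fixed and 60.2% with the random block. Quantile normalization (2966), median centring (2664), normexp (3407), the 6 arrays alone (3356), an intensity trend (3444), the mean of probes (2794) and the filter on all 15 arrays (3004) kept the count within 1.5 times. Leaving out 1,5-naphthalenediol array 3 with the block could not be fitted, since it is the only one on slide 2. With no filter the median of all genes was 0.089. Signs turned with the fixed block, then without 1,5-naphthalenediol array 1, then array 2, for Bin2 (-0.28, -0.17, -0.38), Slc31a1 (0.21, 0.24, 0.18), Cox6c-ps1 (0.28, 0.36, 0.21), Chmp1b2 (0.12, 0.12, 0.12) and Psma2 (0.035, 0.0016, 0.068). They turned with the block and without array 1 for Phf13 (-0.012, -0.073) and Nfix (-0.019, -0.043), with the block and without array 2 for Sbk1 (-0.00079, -0.017) and Oxnad1 (0.35, 0.74), without array 2 alone for Blvrb (0.00024) and Cox5a (0.014), and with the mean of probes for Foxa1 (0.016); the cause was not tested. The replicate block gave 2585 calls, 2425 of them shared, and ended the calls of Bin2, Hells, Sqle and Gata6.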
